A study of Mus musculus with 26 samples.

Results

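Osteoclast marker genes are the transcripts that a bone-resorbing cell switches on as it matures, and 10 of them were followed here in cultures labelled as mouse femoral osteoblasts: Nfatc1, Oscar, Itgb3, Calcr, Dcstamp, Ocstamp, Atp6v0d2, Acp5, Ctsk and Mmp9. They were taken by gene symbol from a table of 26264 symbols, where 10 of 10 were found, and 10 of 10 were among the 16566 genes with enough counts to be tested. RNA was sequenced in 18 libraries, 3 in each of 6 groups. CKO-YOUNG cells came from young Kdm2bfl/fl Ocncre Ai14 mice, in which Cre, driven by the promoter of the osteocalcin gene Ocn, removes the CxxC domain of the histone demethylase Kdm2b and Ai14 supplies a fluorescent reporter of Cre activity. CON-YOUNG cells came from young Ocncre Ai14 mice, which carry the Cre and the reporter without the floxed allele. CKO-OLD is the knockout line at old age, and CON-OLD-iBP is an old control with iBP, a name the labels do not expand. OLD and YOUNG were C57BL/6J mice of 18 and 3 months with neither Cre nor reporter in their labels, and the ages in months of the other 4 groups are not given. Cells of every group were grown in serum-supplemented medium; 8 chromatin libraries of the series were not analysed here.

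Osteoclasts are not of the osteoblast lineage. They form when monocyte and macrophage precursors receive M-CSF (Csf1) through the receptor Csf1r and RANKL (Tnfsf11) through the receptor RANK (Tnfrsf11a), signals that osteoblast-lineage and stromal cells make together with the RANKL decoy osteoprotegerin (Tnfrsf11b). RANK signalling raises the transcription factor Nfatc1, the precursors fuse, and the fused cell secretes acid and proteases onto bone. In RNA of a whole culture, fewer cells of a type and less RNA per cell cannot be told apart.

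Depth was between 46.27 and 77.7 (units of 1e6 counts) per library, so that 1 count was worth 0.0127 to 0.0203 CPM (counts scaled by TMM to a library of 1e6 counts). They were put in 3 sets, by the share of Malat1, a nuclear RNA, at a boundary of 0.05% of counts that was chosen from the data and, below that boundary, by mouse line from the labels. Above it, in set 3, were all 3 libraries of both CKO-OLD and CON-OLD-iBP together with CKO-YOUNG 3, CON-YOUNG 3, OLD 2 and YOUNG 3 (0.0957% to 0.223%); below the boundary, set 1 held the C57BL/6J libraries OLD 1 and 3 and YOUNG 1 and 2, and set 2 held those of the Ocncre line, CKO-YOUNG 1 and 2 and CON-YOUNG 1 and 2, with Malat1 shares that overlap (0.0296% to 0.0386% and 0.0334% to 0.0435%). OLD 1 and OLD 3 were the most alike pair: their median squared difference was 6.22 times counting noise, against 15.5 to 98.8 times in 9 other pairs of one group and set, and they were kept as separate libraries. The 13 osteoblast markers made up 1.66% to 6.21% of the counts, but Bglap, the osteocalcin gene, had 0 to 0.152 CPM in the 4 libraries of set 2. Kdm2b had 27.6 to 58.2 CPM in CKO-YOUNG, 19.9 to 52.9 CPM in CON-YOUNG, 23.4 to 57.2 CPM in the old knockout (CKO-OLD), between 16.2 and 24.0 CPM in CON-OLD-iBP, 19.3 to 34.3 CPM in OLD and 22.6 to 37.5 CPM in YOUNG. A count over the whole gene does not check the removal of one domain. Whether replicates are separate animals or cultures is not in the labels, and p-values then measure only the spread between these libraries, which may be technical.

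The osteoclast genes were concentrated in a pair of libraries of one group. For 8 of the 10 genes, Acp5, Ctsk, Mmp9, Oscar, Ocstamp, Dcstamp, Atp6v0d2 and Calcr, the 2 highest libraries of 18 were OLD 1 and OLD 3, which was so for 3.46% of all tested genes. In 5 of those 8, Acp5, Mmp9, Ocstamp, Atp6v0d2 and Calcr, the next library was CKO-OLD 2, an order shared by 29 of the 16566 tested genes (0.175%). Calcr was a tested gene only through those 3 libraries, which fixes its order, and without it the counts were 7 and 4 of 9. Nfatc1 and Itgb3 did not follow this pattern. The 10 genes together took 0.228% and 0.233% of the counts in OLD 1 and OLD 3, against 0.0184% to 0.0468% in the other 16 libraries, OLD 2 (0.0343%) included.

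**Figure D1:**
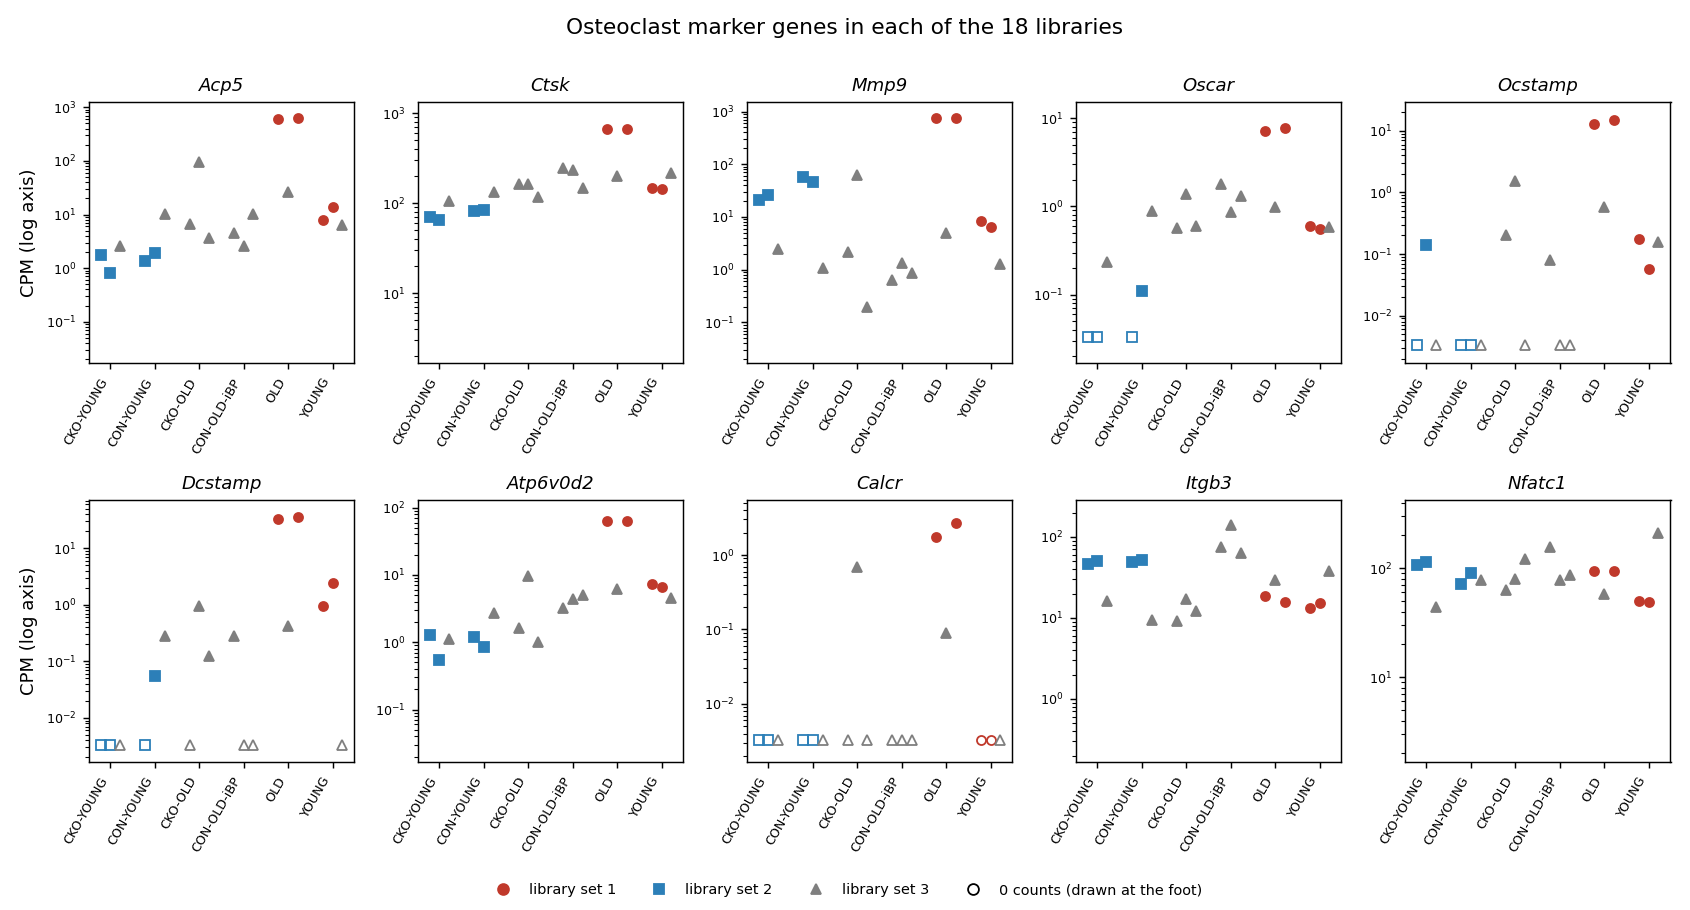
Levels of the 10 osteoclast marker genes in each library (CPM on a log axis; 1 point is 1 library, replicates 1 to 3 from left to right; open symbols at the foot are libraries with 0 counts; colours give the library set). OLD 1 and OLD 3 stand above the rest of the libraries for 8 genes, with Acp5 at 596 and 632 CPM against 0.795 to 95.1 CPM elsewhere, and not for Itgb3 or Nfatc1.

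The genes of the resorbing cell's secreted and acid-making machinery come first, since they carried most of the signal. Acp5 encodes tartrate-resistant acid phosphatase (TRAP), the enzyme of the standard osteoclast stain. It had 6.56, 95.1 and 3.66 CPM in CKO-OLD, 4.44, 2.57 and 10.1 CPM in CON-OLD-iBP, 596, 25.8 and 632 CPM in OLD and 7.81, 14.0 and 6.49 CPM in YOUNG. CKO-YOUNG had 1.79, 0.795 and 2.57 CPM, and CON-YOUNG had 1.37, 1.93 and 10.4 CPM. OLD 2 was 23.1 times below OLD 1 and 24.5 times below OLD 3, and it was still above the 3 YOUNG libraries, so the OLD and YOUNG ranges did not overlap. The order of the group means ran OLD, CKO-OLD, YOUNG, CON-OLD-iBP, CON-YOUNG and CKO-YOUNG, and each neighbouring pair in it overlapped.

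Ctsk encodes cathepsin K, the protease that cleaves bone collagen and that stromal cells can also make. It had 165, 164 and 116 CPM in CKO-OLD, 249, 233 and 149 CPM in CON-OLD-iBP, 659, 201 and 666 CPM in OLD and 148, 143 and 218 CPM in YOUNG. CKO-YOUNG had 70.6, 65.3 and 107 CPM, and CON-YOUNG had 82.4, 83.3 and 134 CPM. Unlike Acp5, Ctsk was at 65.3 CPM or more in each of the 18 libraries, and OLD 1 was 3.28 times OLD 2. OLD 2 lay inside the range of YOUNG, and YOUNG 3 was the highest of its group.

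Mmp9 encodes gelatinase B, a matrix protease of osteoclasts that neutrophils and macrophages also release. It had 2.19, 63.8 and 0.196 CPM in CKO-OLD, 0.647, 1.32 and 0.872 CPM in CON-OLD-iBP, 747, 5.01 and 763 CPM in OLD and 8.42, 6.44 and 1.26 CPM in YOUNG. The gap within OLD was the widest of the 10 genes, with OLD 1 at 149 times and OLD 3 at 152 times OLD 2. CKO-YOUNG had 21.2, 25.6 and 2.49 CPM, and CON-YOUNG had 56.1, 45.3 and 1.06 CPM. Mmp9 was thus at 21.2 to 56.1 CPM in the 4 libraries of set 2, in which Acp5 did not exceed 1.93 CPM.

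Atp6v0d2, a subunit of the vacuolar proton pump that is also needed for precursor fusion, had 1.65, 9.63 and 1.02 CPM in CKO-OLD, 3.17, 4.40 and 4.97 CPM in CON-OLD-iBP, 64.3, 6.12 and 62.6 CPM in OLD and 7.33, 6.55 and 4.48 CPM in YOUNG. In CKO-YOUNG it had 1.27, 0.547 and 1.12 CPM, and in CON-YOUNG 1.20, 0.846 and 2.73 CPM. OLD 2 sat within the YOUNG range, and both young groups of the Ocncre line lay below YOUNG.

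Dcstamp and Ocstamp encode the membrane proteins needed for precursors to fuse into multinucleated cells. Dcstamp had 0, 0.963 and 0.125 CPM in CKO-OLD, 0.283, 0 and 0 CPM in CON-OLD-iBP, 33.4, 0.424 and 35.5 CPM in OLD and 0.940, 2.44 and 0 CPM in YOUNG. It had 0 counts in the 3 CKO-YOUNG libraries, which allows up to 0.0163 CPM over the group, and 0, 0.0551 and 0.287 CPM in CON-YOUNG. Ocstamp had 0.201, 1.52 and 0 CPM in CKO-OLD, 0.0808, 0 and 0 CPM in CON-OLD-iBP, 13.0, 0.584 and 14.8 CPM in OLD and 0.178, 0.0580 and 0.154 CPM in YOUNG. In the young groups of the Ocncre line, Ocstamp had counts in 1 library, CKO-YOUNG 2 (0.141 CPM), and 0 in the 3 CON-YOUNG libraries, which allows up to 0.0176 CPM. The fusion genes were therefore near the detection limit outside OLD 1, OLD 3 and CKO-OLD 2, with the exception of Dcstamp in YOUNG 1 and YOUNG 2: of the other 15 libraries, 3 had at least 10 counts of Ocstamp and 5 of Dcstamp.

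The 3 surface receptors among the genes differed from one another. Calcr, the calcitonin receptor of the mature osteoclast, had 0, 0.683 and 0 CPM in CKO-OLD, 0.0884 CPM in OLD 2, 1.72 and 2.72 CPM in OLD 1 and OLD 3, and 0 counts in each library of CKO-YOUNG, CON-YOUNG, CON-OLD-iBP and YOUNG. Calcr passed the filter on low counts through OLD 1, OLD 3 and CKO-OLD 2 alone, since 0 of the other 15 libraries reached 10 counts. That favoured OLD in advance in each comparison below in which Calcr is counted. Over the 3 libraries, OLD was at least 100.4-fold higher than YOUNG, taking 3 counts over the whole YOUNG group as the floor (0.0150 CPM). The floor covers counting error only.

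Oscar, a co-stimulatory immunoglobulin-like receptor, had 0.563, 1.38 and 0.607 CPM in CKO-OLD, 1.80, 0.862 and 1.30 CPM in CON-OLD-iBP, 7.20, 0.990 and 7.64 CPM in OLD and 0.597, 0.551 and 0.579 CPM in YOUNG. CKO-YOUNG had 0, 0 and 0.233 CPM, and CON-YOUNG had 0, 0.110 and 0.879 CPM. OLD 2 lay above the 3 YOUNG libraries and inside the CON-OLD-iBP range.

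Itgb3, the beta chain of the integrin by which osteoclasts hold on to bone and which platelets and some stromal cells also carry, went its own way. It had 9.17, 16.9 and 12.3 CPM in CKO-OLD, 76.1, 142 and 63.5 CPM in CON-OLD-iBP, 18.7, 29.5 and 15.6 CPM in OLD and 13.2, 15.5 and 37.6 CPM in YOUNG. CKO-YOUNG had 46.0, 50.5 and 16.2 CPM, and CON-YOUNG had 48.7, 51.7 and 9.35 CPM. CON-OLD-iBP was the highest group and did not overlap CKO-YOUNG, the next in the order of means, and OLD 1 and OLD 3 were below OLD 2. In the other 5 groups each neighbouring pair in the order of means overlapped.

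Nfatc1, the transcription factor through which RANK signalling switches on most of the genes above and which many other cell types express, had 63.3, 78.9 and 120.5 CPM in CKO-OLD, 157, 77.9 and 85.9 CPM in CON-OLD-iBP, 94.3, 57.6 and 94.7 CPM in OLD and 50.6, 49.2 and 210.4 CPM in YOUNG. CKO-YOUNG had 106, 115 and 43.6 CPM, and CON-YOUNG had 72.0, 91.1 and 78.5 CPM. The highest library was YOUNG 3, and the 6 groups overlapped along the whole order of means. Nfatc1 in OLD 1 and OLD 3 was 1.64 times OLD 2, the smallest ratio above 1 among the 10 genes.

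Promoter windows from RefSeq (build GRCm38.p6) were matched for 4 of the 10 genes, Acp5, Ctsk, Oscar and Calcr. Shown 5′ to 3′ are the 250 bases before the start for Acp5, Oscar and Ctsk, which were all highest in OLD 1 and OLD 3. Of these, only Ctsk was at 65.3 CPM or more in each library. Acp5 lies at chr9:22130599-22130848 on the minus strand and is the window of 3 that is nearest to the end of the gene, Oscar at chr7:3616158-3616407 on the minus strand and Ctsk at chr3:95498960-95499209 on the plus strand. Capitals mark letters of known osteoclast factor motifs on either strand.
Acp5: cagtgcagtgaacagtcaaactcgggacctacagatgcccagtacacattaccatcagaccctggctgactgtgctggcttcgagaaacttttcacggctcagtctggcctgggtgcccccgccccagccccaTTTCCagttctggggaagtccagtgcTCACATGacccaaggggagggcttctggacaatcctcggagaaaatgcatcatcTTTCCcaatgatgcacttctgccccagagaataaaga
Oscar: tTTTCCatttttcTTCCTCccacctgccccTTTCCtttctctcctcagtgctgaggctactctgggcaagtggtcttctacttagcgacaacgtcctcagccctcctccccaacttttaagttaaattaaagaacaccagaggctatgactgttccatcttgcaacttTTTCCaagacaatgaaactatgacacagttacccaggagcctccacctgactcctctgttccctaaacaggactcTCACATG
Ctsk: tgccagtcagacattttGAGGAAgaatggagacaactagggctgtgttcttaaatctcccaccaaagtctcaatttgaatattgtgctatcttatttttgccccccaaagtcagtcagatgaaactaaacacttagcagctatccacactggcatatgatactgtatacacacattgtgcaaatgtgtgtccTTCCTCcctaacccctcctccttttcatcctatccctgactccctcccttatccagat
The motifs searched were GGAAA (the NFAT core), TGANTCA (AP-1), GAGGAA (the PU.1 core) and TCACATG (a site bound by MITF). The Acp5 window held 2 GGAAA and 1 TCACATG, the Oscar window 3 GGAAA, 1 GAGGAA and 1 TCACATG, and the Ctsk window 2 GAGGAA, with no overlap between motifs. Of 32851 windows of the same length in the table, 55.6% held GGAAA, 6.75% TGANTCA, 23.3% GAGGAA and 3.5% TCACATG. The other 2 Acp5 windows held 1 GGAAA each, and the 2 Calcr windows held 1 and 0. These are matches of letters and not sites shown to be used.

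The first comparison is that of age, OLD against YOUNG. Of the 10 genes, 8 had a positive log2 fold change, but none passed (edgeR quasi-likelihood test, Benjamini-Hochberg adjusted p under 0.05 over all tested genes; 0% of the 16566 genes passed). At an unadjusted p under 0.05, 7 of the 10 passed, Calcr among them, against 3.34% of all tested genes. With DESeq2 Acp5 and Ctsk passed (0.247% of all tested genes did). The median log2 fold change of the 10 was 3.77, against -0.03 over all tested genes. Calcr lies above this median both at its fitted value and at its bound, so that choice could not change it. Without Calcr the median is the value of Oscar, 3.19.

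The secreted effectors are given first. Mmp9 averaged 505 ± 433 CPM in OLD and 5.37 ± 3.70 CPM in YOUNG (SD, n = 3 each; log2 fold change 6.55, SE 2.08, edgeR adjusted p = 1). Acp5 averaged 418 ± 340 CPM in OLD and 9.44 ± 4.03 CPM in YOUNG, a log2 fold change of 5.47 (SE 1.40; edgeR adjusted p = 1; DESeq2 adjusted p = 0.00327). Ctsk averaged 509 ± 267 CPM in OLD and 169.8 ± 41.8 CPM in YOUNG, with 1.58 (SE 0.39; edgeR adjusted p = 0.893; DESeq2 adjusted p = 0.0274). In each of these 3 genes OLD 2 stood far below OLD 1 and OLD 3, and the SD of OLD is wide.

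For the remaining genes the log2 fold changes were 6.16 for Ocstamp, 4.35 for Dcstamp, 3.19 for Oscar, 2.86 for Atp6v0d2, -0.05 for Itgb3 and -0.33 for Nfatc1, each with an edgeR adjusted p of 1. The OLD libraries lay above the YOUNG libraries without overlap for 4 of the 10 genes, Acp5, Oscar, Ocstamp and Calcr, against 5.73% of all tested genes. Calcr was favoured there by the filter, which it passed only through OLD 1, OLD 3 and CKO-OLD 2. That leaves Acp5, Oscar and Ocstamp.

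The age contrast was also taken within the library sets. Within set 1, where OLD 1 and 3 meet YOUNG 1 and 2, 10 of 10 genes had positive log2 fold changes. They ran from 0.26 for Itgb3 to 6.84 for Ocstamp among the 9 with counts on both sides, which leaves out Calcr. Of these Ctsk rose (2.18, SE 0.24, edgeR adjusted p = 0.00414, against 0.38% of all genes called). The OLD side is the closely alike pair OLD 1 and OLD 3, and with both summed to 1 library Ctsk was still called (2.21, adjusted p = 0.0414, against 0.0412% of all tested genes). In the fit with both libraries, Acp5 had 5.81 (adjusted p = 0.134) and Nfatc1 0.92 (adjusted p = 0.403). Within set 3, where OLD 2 alone meets YOUNG 3 alone, 0 of the 10 genes passed in edgeR, against 0.0543% of all tested genes, and the log2 fold changes were 1.99 for Acp5, 1.99 for Mmp9, -0.12 for Ctsk and -1.87 for Nfatc1. Each lone library is assumed there to vary like the other groups. With OLD 1 and OLD 3 left out of the fit by group, Acp5 had 1.43 (adjusted p = 1).

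**Figure D2:**
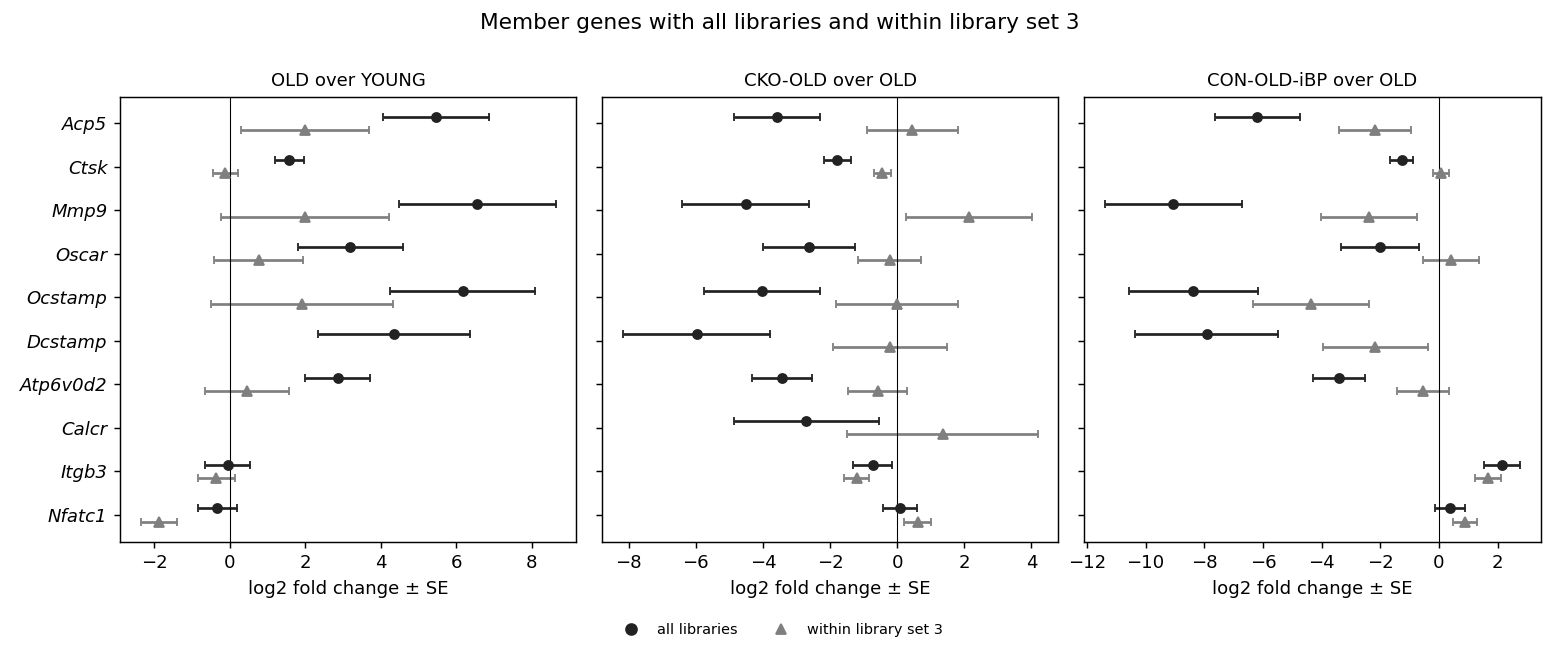
Log2 fold changes of the 10 genes in the 3 comparisons with OLD (horizontal axis; bars are SE from edgeR; circles use all libraries and triangles the libraries of set 3, in which OLD 2 is the only OLD library). Values with a group at 0 counts are left out. The circles for Acp5 stand at 5.47, -3.57 and -6.20, and its triangles at 1.99, 0.45 and -2.18.

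The macrophage side of the age comparison was measured with 26 macrophage and monocyte markers. They made up 1.22%, 0.158% and 1.21% of the counts in OLD and 1.73%, 1.15% and 0.371% in YOUNG, and 0 of 26 passed in edgeR in either direction (2 positive, 24 negative; median log2 fold change -0.45). OLD 1 and OLD 3 thus lay between YOUNG 2 and YOUNG 1 in macrophage transcripts, while Acp5 in the YOUNG pair was at 14.0 and 7.81 CPM and Calcr at 0 counts. The defining marker Adgre1 (F4/80) had 357, 23.8 and 340 CPM in OLD and 529, 421 and 92.1 CPM in YOUNG.

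The receptor genes of the precursor were measured next. Tnfrsf11a, which encodes RANK, had 58.4, 5.73 and 55.0 CPM in OLD and 51.3, 43.9 and 7.96 CPM in YOUNG. Csf1r, the M-CSF receptor, had 815, 87.9 and 842 CPM in OLD and 1148, 885 and 224 CPM in YOUNG. Per unit of Tnfrsf11a, Acp5 stood at 10.2 and 11.5 in OLD 1 and OLD 3 and 4.50 in OLD 2, against 0.152 and 0.320 in YOUNG 1 and YOUNG 2 and 0.816 in YOUNG 3. This ratio of CPM values can be read across libraries, where the gene lengths cancel, and not as a ratio of molecules. Its lowest OLD value was above its highest YOUNG value, where OLD 1 and OLD 3 are the closely alike pair. Over the series it did not separate old from young. It was 2.12, 3.75 and 1.48 in CKO-YOUNG and 2.00, 2.23 and 5.06 in CON-YOUNG, so CON-YOUNG 3 was above OLD 2. Ctsk per unit of Tnfrsf11a did not separate the ages, at 11.3, 35.1 and 12.1 in OLD and 2.89, 3.27 and 27.4 in YOUNG.

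**Figure D3:**
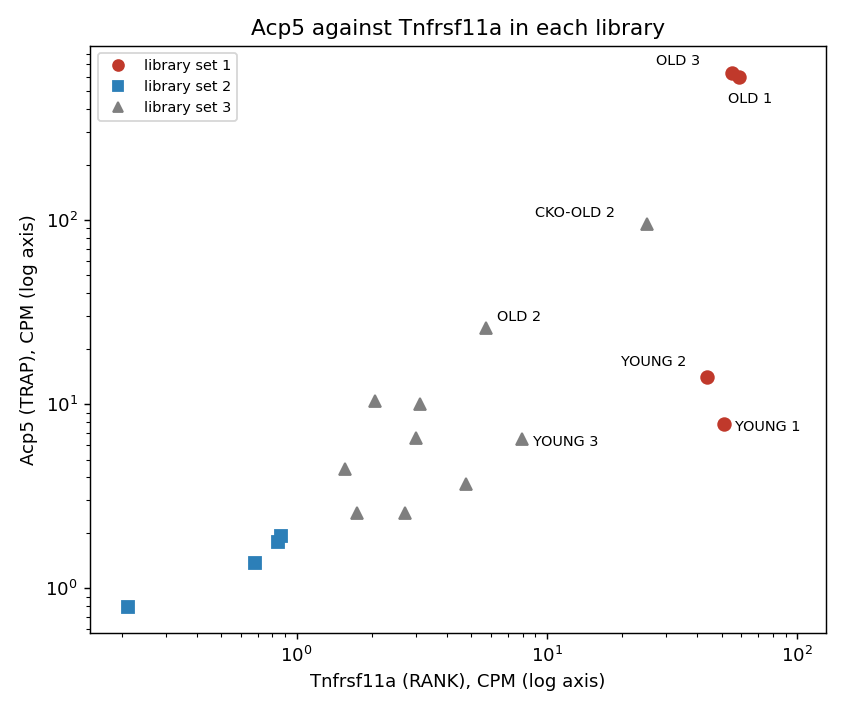
Acp5 against Tnfrsf11a, the gene for the RANKL receptor RANK, in the 18 libraries (both CPM on log axes; 1 point is 1 library, with shape and colour for its library set; the OLD and YOUNG libraries and CKO-OLD 2 are named). OLD 1, OLD 3, YOUNG 1 and YOUNG 2 lie together at 43.9 to 58.4 CPM of Tnfrsf11a, while Acp5 is at 596 and 632 CPM in the OLD pair and at 7.81 and 14.0 CPM in the YOUNG pair.

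Of the 16 genes for upstream receptors, adaptors and transcription factors (4 of them also on the macrophage list), 6 were positive and 10 negative in OLD against YOUNG, 0 passed in edgeR, and the median log2 fold change was -0.11. Siglec15, a receptor of the fusing osteoclast, had the smallest p of this list (log2 fold change 4.23, adjusted p = 1) and had 4.38, 0.301 and 2.78 CPM in OLD and 0.254, 0 and 0.135 CPM in YOUNG. Of 16 further genes for acid secretion, attachment and vesicle traffic, 9 were positive and 7 negative, 0 passed, and the median was 0.05. The 3 of smallest p in this list were Src (log2 fold change 0.48), Car2 (2.67, adjusted p = 1) and Myo10 (-0.45). Of these Car2, the carbonic anhydrase that supplies protons, had 2.29, 0.212 and 1.66 CPM in OLD and 0.241, 0.101 and 0.309 CPM in YOUNG.

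The coupling signals were measured in the same libraries. Tnfsf11 (RANKL) had 11.5, 3.82 and 11.0 CPM in OLD and 1.56, 1.46 and 9.98 CPM in YOUNG, and over the groups its log2 fold change was 1.02 (edgeR adjusted p = 1). Within set 1 it was higher in OLD (2.89, SE 0.45, adjusted p = 0.0247; 0.148 with OLD 1 and OLD 3 summed to 1 library), and within set 3 it was -1.39 (adjusted p = 0.431). Tnfrsf11b (osteoprotegerin) had 18.7, 31.3 and 18.7 CPM in OLD and 30.0, 40.5 and 592 CPM in YOUNG, so YOUNG 3 alone held most of that group's signal. Csf1 had 1991, 2215 and 1978 CPM in OLD and 1116, 1443 and 1456 CPM in YOUNG, which did not overlap but did not pass (0.62, adjusted p = 1).

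**Figure D4:**
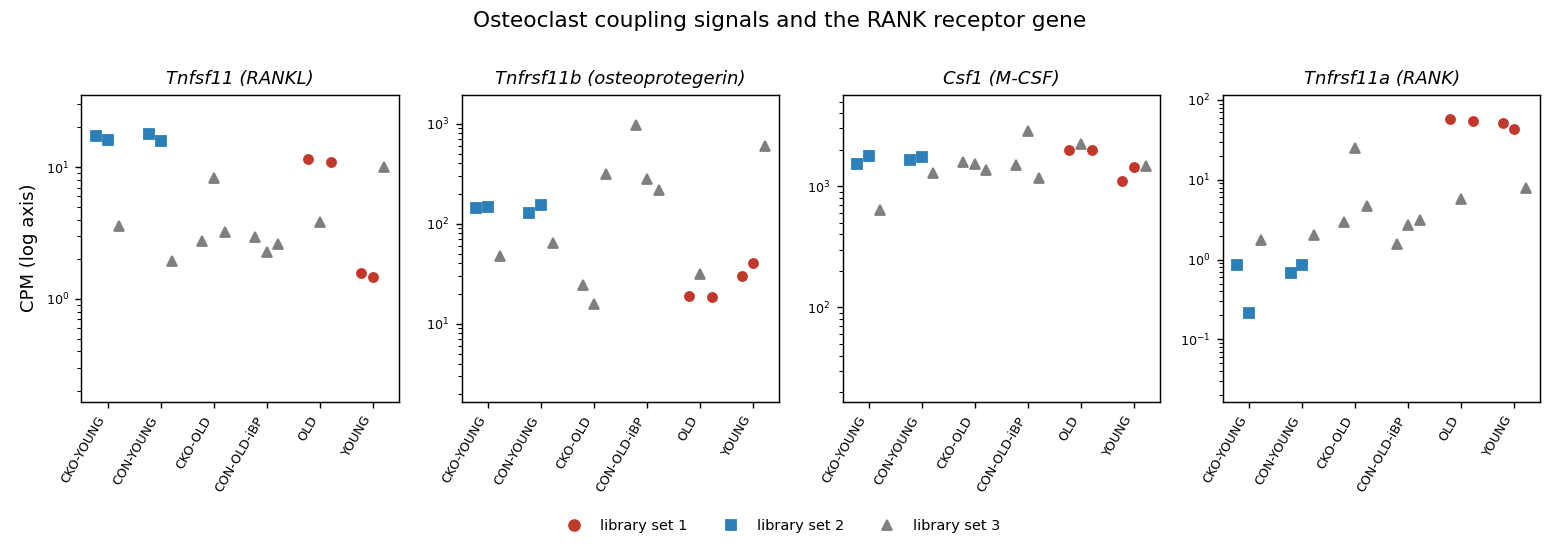
Levels of Tnfsf11, Tnfrsf11b, Csf1 and Tnfrsf11a in each library (CPM on a log axis; 1 point is 1 library, coloured by library set). Tnfsf11 is at 11.5 and 11.0 CPM in OLD 1 and OLD 3 and at 1.56 and 1.46 CPM in YOUNG 1 and YOUNG 2, and at 15.8 to 17.8 CPM in the 4 libraries of set 2, in which Tnfrsf11a is below 1 CPM.

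In the young knockout, CKO-YOUNG against CON-YOUNG, no osteoclast gene passed in edgeR (0 of 10, against 0.127% of all tested genes; with the replicate block 35 genes in place of 21 passed, none of them among the 10). At an unadjusted p under 0.05 the count was 0 of 10, against 5.48% of all tested genes. With DESeq2 it was 0, where 1.38% of all tested genes passed. Acp5 averaged 1.72 ± 0.89 CPM in CKO-YOUNG and 4.58 ± 5.08 CPM in CON-YOUNG (SD, n = 3 each; log2 fold change -1.41, SE 1.21, adjusted p = 1), and CON-YOUNG 3 with 10.4 CPM set the second mean. Ctsk averaged 81.0 ± 22.8 CPM in CKO-YOUNG and 100.04 ± 29.7 CPM in CON-YOUNG (-0.30, SE 0.38). Each of the 10 genes overlapped between the groups or was at 0 in both, while 8.51% of all tested genes did not overlap. Within set 2 Acp5 had -0.35 and Ctsk -0.29, and within set 3, 1 library against 1, -2.02 and -0.33. Precursor transcripts were low in these cultures: Tnfrsf11a had 0.845, 0.212 and 1.74 CPM in CKO-YOUNG and 0.685, 0.864 and 2.06 CPM in CON-YOUNG, and macrophage markers made up 0.0156% to 0.111% of the counts in CKO-YOUNG and 0.0210% to 0.0520% in CON-YOUNG.

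At old age the knockout can be set against OLD, which is of another mouse line, so that genotype and line cannot be told apart. In CKO-OLD against OLD, 9 of the 10 genes had negative log2 fold changes and 0 passed in edgeR (0.00604% of all tested genes passed). The median was -3.07, against -0.01 over all tested genes, 6 of the 10 had an unadjusted p under 0.05 (8.16% of all tested genes), and with DESeq2 Ctsk and Atp6v0d2 were lower (1.09% of all tested genes passed). Ctsk averaged 148 ± 28.1 CPM in CKO-OLD and 509 ± 267 CPM in OLD (SD, n = 3 each; -1.78, SE 0.39, edgeR adjusted p = 0.216; DESeq2 adjusted p = 0.00233). It was the one gene of the 10 whose groups did not overlap, which 8.47% of all tested genes did in that direction, and without OLD 2 it passed in edgeR (-2.16, adjusted p = 0.0230; 0.281% of all tested genes passed).

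The other log2 fold changes in CKO-OLD against OLD were -5.98 for Dcstamp, -4.52 for Mmp9, -4.03 for Ocstamp, -3.57 for Acp5, -3.43 for Atp6v0d2, -2.71 for Calcr, -2.63 for Oscar, -0.74 for Itgb3 and 0.09 for Nfatc1, with edgeR adjusted p from 0.334 to 0.981. Within set 3, where the 3 CKO-OLD libraries meet OLD 2 alone, 4 of the 10 were positive and 6 negative, the median was -0.11, and 0 passed, against 0.0543% of all tested genes (Acp5 0.45, Ctsk -0.44, Mmp9 2.14). The macrophage markers moved with this contrast: 26 of 26 were negative over all libraries (median -1.58), and 25 of 26 were positive within set 3 (median 1.12), with 0 called in either fit. Their part in the osteoclast gene values was not tested. CKO-OLD 2 was the third highest library of the series for Acp5, Mmp9, Ocstamp, Atp6v0d2 and Calcr. It also had the most macrophage transcripts of its group, 0.672% of the counts against 0.246% in CKO-OLD 1 and 0.157% in CKO-OLD 3, and 25.1 CPM of Tnfrsf11a against 3.00 and 4.75 CPM. Acp5 per unit of Tnfrsf11a was 3.79 in CKO-OLD 2, 2.19 in CKO-OLD 1 and 0.771 in CKO-OLD 3. The value of CKO-OLD 2 was between the OLD and YOUNG ranges and inside the CON-YOUNG range (2.00 to 5.06).

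The difference of the knockout contrasts, old minus young, was tested for each gene in the same model. None of the 10 passed in edgeR (0% of all tested genes passed), and none did with DESeq2. Ctsk (-1.48, SE 0.54, adjusted p = 0.963), Ocstamp and Atp6v0d2 (-2.74, SE 1.17, adjusted p = 0.963) had an unadjusted p under 0.05, 3 of 10 against 4.81% of all tested genes. The old side of this difference rests on OLD.

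CON-OLD-iBP against OLD shares its control libraries with the comparisons above, and treatment and mouse line change together in it. Again 0 of the 10 genes passed in edgeR (0.0241% of all tested genes passed), with adjusted p-values that lay close to the threshold for several. Acp5 averaged 5.69 ± 3.89 CPM in CON-OLD-iBP and 418 ± 340 CPM in OLD (SD, n = 3 each; log2 fold change -6.20, SE 1.45, adjusted p = 0.0550). Mmp9 averaged 0.946 ± 0.343 CPM in CON-OLD-iBP and 505 ± 433 CPM in OLD (-9.05, SE 2.33, adjusted p = 0.0598). At an unadjusted p under 0.05, 8 of the 10 passed, Calcr among them, where 23.4% of all tested genes did too.

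In this comparison 6 of the 10 genes were lower in CON-OLD-iBP without overlap, Acp5, Mmp9, Ocstamp, Dcstamp, Atp6v0d2 and Calcr (15.8% of all tested genes), and Itgb3 was higher without overlap (14.3%). Calcr was at least 77.2-fold lower in CON-OLD-iBP than in OLD, against a floor of 3 counts over the CON-OLD-iBP group (0.0196 CPM). It passed the filter only through OLD 1, OLD 3 and CKO-OLD 2, which favoured this direction in advance. With DESeq2 Acp5, Ctsk, Ocstamp, Dcstamp and Atp6v0d2 were lower and Itgb3 higher (12.2% of all tested genes passed). Without OLD 2, edgeR called 6 of the 10 lower, Acp5, Ctsk, Mmp9, Ocstamp, Dcstamp and Atp6v0d2, with adjusted p from 0.0122 to 0.0439 (7.87% of all tested genes passed). Within set 3, against OLD 2 alone, 0 passed (0.857% of all tested genes did), with Acp5 at -2.18 (adjusted p = 0.443), Ctsk at 0.06 and Itgb3 at 1.67 (adjusted p = 0.0982).

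The macrophage markers were low in the same libraries, at 0.0549% to 0.109% of the counts in CON-OLD-iBP and 0.158% to 1.22% in OLD, with 26 of 26 negative and 0 called in edgeR (median log2 fold change -3.68). Adgre1 had 6.89, 14.3 and 12.1 CPM in CON-OLD-iBP, and between 1 and 3 of the 26 markers were at 0 in its libraries. Tnfrsf11a had 1.56, 2.72 and 3.12 CPM in CON-OLD-iBP. The part of macrophage content in the lower osteoclast genes was not tested. Tnfrsf11b had 975, 278 and 218 CPM in CON-OLD-iBP and 18.7, 31.3 and 18.7 CPM in OLD (4.42, SE 1.29, adjusted p = 0.0726), groups that did not overlap.

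Between the 2 old groups of the knockout experiment, CKO-OLD against CON-OLD-iBP, genotype and treatment differ together and both groups lie in set 3. Itgb3 differed: it averaged 12.8 ± 3.89 CPM in CKO-OLD and 93.7 ± 41.9 CPM in CON-OLD-iBP (SD, n = 3 each), a log2 fold change of -2.87 (SE 0.63, edgeR adjusted p = 0.0443). It was 1 of 10 genes called, against 1.29% of all tested genes (0.718% lower), and DESeq2 also called it alone among the 10 (8.64% of all tested genes). The groups did not overlap, as in 14.5% of all tested genes in that direction. CON-OLD-iBP stood above every other group of the series, while CKO-OLD overlapped OLD (-0.74, edgeR adjusted p = 0.786). The call did not survive the loss of any 1 of the 6 libraries (adjusted p from 0.0584 without CON-OLD-iBP 2 to 0.154 without CKO-OLD 3). In these fits the log2 fold change of Itgb3 lay between -3.13 and -2.42. Over all tested genes, calls fell from 213 to 2 without CKO-OLD 2 and rose to 512 without CON-OLD-iBP 2. With the libraries of set 3 fitted with their own coefficients, Itgb3 had the same -2.87 as with all libraries, with an adjusted p of 0.000300. That fit called 18.7% of all tested genes.

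Itgb3 is carried by platelets too, and the 9 megakaryocyte and platelet markers made up 0.00185% to 0.00331% of the counts in the CKO-OLD libraries and between 0.00232% and 0.00352% in CON-OLD-iBP, ranges that overlap. The other 9 genes were split in sign, 5 positive and 4 negative, with Acp5 at 2.63 (adjusted p = 0.256), Mmp9 at 4.54 (adjusted p = 0.213) and Ctsk at -0.50 (adjusted p = 0.492). With a coefficient for each group and set Mmp9 was higher in CKO-OLD (4.54, SE 1.39, adjusted p = 0.0413, where 18.7% of all tested genes were called), and CKO-OLD 3 (0.196 CPM) was below each CON-OLD-iBP library. Without CKO-OLD 2, in the fit by group, Mmp9 was at 0.32 (adjusted p = 0.966) and Acp5 at -0.15 (adjusted p = 0.977). Macrophage markers were positive in 25 of 26, and in the fit by set 17 of them were called higher in CKO-OLD (0 in the fit by group), Csf1r (2.25, adjusted p = 0.00821) and Adgre1 (2.62, adjusted p = 0.00547) among them.

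CON-YOUNG against YOUNG sets the Ocncre Ai14 line against C57BL/6J mice without either allele. Of the 6 comparisons it had the most macrophage markers called. Of the 10 osteoclast genes 0 passed in edgeR, against 5.55% of all tested genes. At an unadjusted p under 0.05, 2 of 10 passed (23% of all tested genes), and with DESeq2 0 did (12.5% of all tested genes). With 10 genes these counts cannot be told apart from the shares over all genes. Of the macrophage markers 24 of 26 fell (median log2 fold change -5.24), as did 8 of 16 upstream genes. Mitf (-1.79, adjusted p = 0.0141), Csf1r (-5.26, adjusted p = 0.0141) and Trem2 (-4.74, adjusted p = 0.0141) were among the upstream genes. Tnfrsf11a fell (-4.83, SE 1.11, adjusted p = 0.0222; 0.0545 with the replicate block). Of the 16 genes for acid secretion and attachment 3 fell, Plekhm1 (-0.91), Atp6v1c1 (-1.06) and Atp6v1b2 (-1.24), with 1 called under the block. Here set 2 libraries meet set 1 libraries. Without CON-YOUNG 1, without CON-YOUNG 2, without YOUNG 1 or with a term for library set, 0 genes of these 3 lists were called, as over all tested genes. Within set 3 the macrophage markers had a median of -3.06 with 0 of 26 called, and Tnfrsf11a had -1.95 (adjusted p = 0.519).

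The 9 osteoclast genes with counts in either group had a median log2 fold change of -0.80, with Ocstamp at its bound. Acp5 averaged 4.58 ± 5.08 CPM in CON-YOUNG and 9.44 ± 4.03 CPM in YOUNG (SD, n = 3 each; -1.04, SE 1.18, adjusted p = 0.638), and Atp6v0d2 averaged 1.59 ± 1.00 CPM in CON-YOUNG and 6.12 ± 1.47 CPM in YOUNG (-1.94, SE 0.84, adjusted p = 0.183). Ctsk, Ocstamp and Atp6v0d2 were lower in CON-YOUNG without overlap, 3 of 10 against 13% of all tested genes. Itgb3 (0.73, adjusted p = 0.489) and Mmp9 were positive, with Mmp9 at 34.2 ± 29.2 CPM in CON-YOUNG and 5.37 ± 3.70 CPM in YOUNG (2.66, SE 1.74, adjusted p = 0.376). Within set 3, CON-YOUNG 3 alone against YOUNG 3 alone, Mmp9 had -0.25, Itgb3 -2.01 and Acp5 0.69, each of the opposite sign to the values over all libraries.

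Other blood and vessel cells were looked for in the same libraries. The 11 neutrophil markers made up 0.000117% to 0.00139% of the counts, the 10 B and T cell markers 2.04e-05% to 0.000196%, and the 9 endothelial markers 0.000432% to 0.00248%, and in each library at least 4 of the 11 neutrophil and 5 of the 10 lymphoid markers were at 0. In OLD 1 and OLD 3, where Mmp9 was at 747 and 763 CPM, the neutrophil markers summed to 0.000713% and 0.000816% of the counts. The 9 megakaryocyte and platelet markers made up 0.00127% to 0.00971% of the counts. Among them Pf4, which macrophages can express, had 52.3, 2.39 and 52.6 CPM in OLD and 82.6, 33.4 and 12.7 CPM in YOUNG. Ppbp went the other way within OLD, at 2.45, 26.1 and 2.04 CPM, and had 1.32, 0.855 and 10.3 CPM in YOUNG. The 3 of smallest p in OLD against YOUNG were Gp1bb (log2 fold change -0.33), Ppbp (1.30) and Itga2b (0.45). None of the tested genes of these 4 lists passed in OLD against YOUNG in edgeR, where 0% of all tested genes did, so this count is uninformative. In CON-YOUNG against YOUNG, 1 neutrophil, 1 megakaryocyte and 2 endothelial markers were called lower and 1 megakaryocyte marker higher (5.55% of all tested genes passed). With a term for library set no gene was called there.

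The genes whose levels ran most like those of Acp5 were sought by the root mean square difference of centred log2 CPM over the 18 libraries. Outside the 10 genes the nearest were Mt3 (1.09), Ucp2 (1.51) and Cyp2s1 (1.52), where the median of all tested genes was 2.73. Atp6v0d2 (1.13), Ocstamp (1.31), Oscar (1.49) and Dcstamp (1.54) lay at similar distances. Calcr did too (1.13), but it passed the filter only through OLD 1, OLD 3 and CKO-OLD 2, which favours such a profile. Nfatc1 (2.75), Mmp9 (2.86) and Itgb3 (3.28) were farther than the median gene. Mt3, a metallothionein, had 11.9, 1.33 and 10.5 CPM in OLD and 0.0889, 0.203 and 0.908 CPM in YOUNG. The nearest to Ctsk were Chchd10 (0.44), Atp6v1b2 (0.48) and Olfm1 (0.48), against a median of 1.12, and none of the other 9 osteoclast genes was nearer to Ctsk than Nfatc1 (1.01).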

How the data were processed

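The deposited table holds whole-number read counts for each gene symbol, without normalization. The submitters' processing notes name HISAT2, Trim Galore, FastQC and the build mm39; for the versions, counter, annotation and strand setting, nothing is given in the sources used here, so overlapping or antisense genes cannot be told apart. The labels put 18 RNA libraries in 6 groups of 3, with depths of 46.27 to 77.7 (units of 1e6 counts). The 10 members and the other gene lists were chosen with earlier results of these data known.

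Genes were kept by filterByExpr (minimum count 10, minimum total 15), with TMM scaling. The test was the robust two-sided quasi-likelihood F test of edgeR on the 18 libraries together, each group having its own coefficient (residual degrees of freedom 12), and p-values were adjusted by Benjamini-Hochberg over 16566 genes, with a threshold of 0.05. The code was tested on simulated data. Adjusted p-values are from this test unless DESeq2 is named. Fits within a library set had a coefficient for each group and set (8 residual degrees of freedom). CPM values carry the TMM scaling, ± is the SD of 3 libraries, and a floor of 3 counts over a group stands in for a group at 0. Lists other than the 10 genes were described by counts and medians: upstream genes, effector genes, coupling signals, and markers of macrophages, neutrophils, megakaryocytes, B and T cells, endothelium and osteoblasts. The named genes are the 10 and at most the 3 of smallest p in a list and comparison. Csf1r, Tnfrsf11a, Adgre1, Tnfsf11, Tnfrsf11b, Csf1 and Col1a1 are named too, as are the 3 genes most like Acp5 and Ctsk. Siglec15, Car2, Bglap, Kdm2b, Pf4 and Ppbp were given values per library after these values were seen.

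The replicate numbers come from the titles. Deviations of same-numbered libraries correlated in all 3 pairs for CKO-YOUNG with CON-YOUNG (0.193, 0.237 and 0.305) and CON-YOUNG with YOUNG (0.146, 0.245 and 0.310). In each of these groups replicate 3 was of library set 3 and replicates 1 and 2 were not. The correlations therefore cannot tell pairing from library set, and the fit with the number as a block is given only as an alternative. Alternatives were DESeq2, its size factors, no filter, the block, the 2 groups alone, a term for library set, fits within sets, and each library left out; leaving out or summing OLD 1 and OLD 3 (summed within set 1 too), and leaving out CKO-OLD 2 with them, were chosen after seeing the data. Tools were R 4.3.3, edgeR 4.0.16, DESeq2 1.42.0, Python 3.11.15 and matplotlib 3.10.9.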

Additional observations from a re-analysis of the deposited data

How the results depend on the processing

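The number of the 10 osteoclast genes called depended on the tool and on OLD 2. In place of edgeR, DESeq2 called 2 in OLD against YOUNG, 2 in CKO-OLD against OLD and 6 in CON-OLD-iBP against OLD, where edgeR called 0. Leaving out single libraries gave 0 to 1 in CKO-OLD against OLD and 0 to 6 in CON-OLD-iBP against OLD, the highest of each without OLD 2. It gave 0 in the other comparisons run, CKO-OLD against CON-OLD-iBP (1 with all libraries) included. Over all tested genes these fits called 0 to 48 in CKO-OLD against OLD and 0 to 1346 in CON-OLD-iBP against OLD. The ranges were 0 to 2 in OLD against YOUNG, 2 to 23 in CKO-YOUNG against CON-YOUNG and 0 to 2924 in CON-YOUNG against YOUNG. In CKO-OLD against CON-OLD-iBP the range was 2 to 512, against 213 with all libraries, Itgb3 among them. That 1 call, Itgb3, was also lost with no filter on low counts (0 called, adjusted p = 0.0561) and without OLD 1, OLD 3 and CKO-OLD 2 (0 called, adjusted p = 0.240). Within set 1, 1 of the 10 genes passed in OLD against YOUNG, against 0.38% of all tested genes. With OLD 1 and OLD 3 summed, the OLD side of set 1 was 1 library without a spread of its own, and Ctsk had a log2 fold change of 2.21. Within set 3, 2 of the 10 passed in CKO-OLD against CON-OLD-iBP, near the 18.7% of all tested genes called in that fit. The causes were not tested. Of 895 fold changes of single genes under the alternatives, 71 uncalled ones changed sign. Over all genes, counts of calls ranged from 0 to 63 for OLD against YOUNG (0 in the fit reported), 0 to 181 for CKO-OLD against OLD (1), 0 to 2023 for CON-OLD-iBP against OLD (4), 0 to 3100 for CKO-OLD against CON-OLD-iBP (213), 2 to 1113 for CKO-YOUNG against CON-YOUNG (21) and 0 to 2924 for CON-YOUNG against YOUNG (919).

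With the replicate number as a block, 0 of the 10 genes passed in each of the 6 comparisons. The Itgb3 call was lost there too (adjusted p = 0.0638), and no other call among the 10 changed. Over all 16566 tested genes the block fit called 106 in CKO-OLD against CON-OLD-iBP, where 213 passed without the block. It called 849 in CON-YOUNG against YOUNG, 35 in CKO-YOUNG against CON-YOUNG and 0 in each comparison with OLD. In OLD against YOUNG, CKO-OLD against OLD, CON-OLD-iBP against OLD and CKO-OLD against CON-OLD-iBP the numbers did not mark pairs by their correlations, which lay between -0.312 and 0.313. Depth limits Calcr, Ocstamp and Dcstamp, which had under 10 counts in most libraries. With OLD 1 and OLD 3 summed to 1 library, 0 of the 10 genes passed in OLD against YOUNG.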
